A study of Homo sapiens with 9 samples.

Results

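This account covers 10 genes of the NF-κB pathway in LIM1215 colorectal cancer cells that had acquired resistance to cetuximab, an antibody against the EGF receptor. They are the transcription factor subunits NFKB1, NFKB2, RELA and RELB, the feedback inhibitors NFKBIA and TNFAIP3, and the genes TNFAIP2, ICAM1, LCN2 and LITAF, which are known or named for induction through inflammatory signalling. They were listed by symbol, and all 10 were found among the 58920 genes listed for every library. The parental LIM1215 line is initially sensitive to cetuximab. LIM1215-R1 and LIM1215-R2 were selected from it separately and in parallel over months with rising cetuximab concentrations, and LIM1215-parental cells were carried alongside without the antibody. Both resistant lines are mixed populations and not single clones, and by the study's account a part of the cells in each carries an activating HRAS mutation, a different one per line. RNA was taken from untreated cultures, and whether the cetuximab used to maintain the resistant lines had been withdrawn by then is not given in the sources used here. Each line had 3 libraries, which the study calls technical replicates, so the p-values measure only the spread between these libraries. How the cultures were grown and harvested cannot be told apart from the line they belonged to.

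NF-κB is a family of dimeric transcription factors that wait in the cytoplasm, held there by inhibitory IκB proteins. In the canonical pathway, signals from cytokine and pattern recognition receptors activate the IκB kinases, IκBα is degraded, and dimers such as p50 with RELA enter the nucleus and bind κB sites. In the non-canonical pathway, the kinase NIK drives processing of the NFKB2 product p100 to p52, which pairs with RELB. The targets include the pathway's own inhibitors, and in the intestinal epithelium also chemokines, adhesion molecules and antimicrobial proteins.

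Transcripts were measured by stranded poly(A) RNA sequencing, and the authors deposited raw counts per gene. The libraries held between 13737416 and 18725014 counts each. Levels are given as CPM, the counts of a gene per 1000000 counts of the library, scaled with edgeR's TMM factors, which lay between 0.984 and 1.02. A gene passed the test at an adjusted p of at most 0.01 by the quasi-likelihood method of edgeR, corrected after Benjamini and Hochberg over 19102 genes. A differentially expressed gene (DEG) also changed by 1.5 or more on the log2 scale, up or down. Of 12 colon epithelium markers, 11 were detected, with summed levels of 13490 to 13860 CPM in parental libraries, 16887 to 17198 in LIM1215-R1 and 15432 to 15843 in LIM1215-R2, and KRT20 had 0 counts. KRT8 and KRT18 made up most of these sums, with means of 5717 and 4131 CPM in parental cells and 7884 and 5499 CPM in LIM1215-R1. The markers moved in both directions, as 4 passed the test as higher and 5 as lower in LIM1215-R1, and 5 and 5 in LIM1215-R2. Among the lower ones, the intestinal transcription factor CDX1 went from 195 to 108 and 124 CPM, CDX2 from 413 to 305 and 283 CPM, and the adhesion proteins CDH17 from 598 to 415 and 399 CPM and EPCAM from 911 to 758 and 729 CPM. Among 9 immune cell markers, the defining genes PTPRC, CD3E and TYROBP had 0 counts in all 9 libraries. The immune markers summed to 7.55 to 10.8 CPM in parental libraries, 11.9 to 15.0 in LIM1215-R1 and 8.69 to 10.8 in LIM1215-R2, and CD68 alone exceeded 1 CPM. Fibroblast markers summed to 1.19 to 3.19 CPM with COL1A2 and PDGFRA at 0 counts, and endothelial markers to 0.0653 to 0.722 CPM with KDR at 0. Mitochondrially encoded coding genes took 6.36% to 6.52% of the counts in parental libraries, 6.05% to 6.29% in LIM1215-R1 and 5.93% to 6.09% in LIM1215-R2, and their part in the differences below was not tested.

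The promoters of 4 of these genes are shown because they hold the kappaB consensus, letters that NF-κB dimers are known to bind. RefSeq promoter windows of 300 bases on GRCh38.p14, from 250 bases before to 50 bases after the annotated start, were given for 9 of the 10 genes, all but RELB. For TNFAIP3, TNFAIP2 and LITAF, this start lies inside the gene positions given below and not at their edge. Their outermost starts were therefore not searched. The kappaB consensus was taken as GGG, A or G, any base, A or T, C or T, C or T, and CC. Searched on both strands, it occurred in the windows of NFKB1, NFKBIA, TNFAIP3 and LCN2, which is 4 of 9 or 44.4%. It occurred in 5.72% of 27305 promoters, in 6.58% of the 12577 promoters of genes that were tested, and in 16 of 76 windows of other NF-κB pathway genes, or 21.1%. The 250 upstream bases of the 4 promoters with a match read as follows, 5′ to 3′ on the strand of the gene and ending at the base before the start, with the matches in capitals. The NFKB1 sequence is chr4:102501109-102501358 on the plus strand, NFKBIA chr14:35404750-35404999 on the minus strand, TNFAIP3 chr6:137867009-137867258 on the plus strand and LCN2 chr9:128149203-128149452 on the plus strand.
NFKB1: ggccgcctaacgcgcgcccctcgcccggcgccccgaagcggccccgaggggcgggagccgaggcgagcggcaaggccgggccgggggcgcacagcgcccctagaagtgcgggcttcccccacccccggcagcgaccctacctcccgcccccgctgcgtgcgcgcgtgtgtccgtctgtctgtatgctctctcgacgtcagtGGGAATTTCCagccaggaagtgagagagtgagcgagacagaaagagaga
NFKBIA: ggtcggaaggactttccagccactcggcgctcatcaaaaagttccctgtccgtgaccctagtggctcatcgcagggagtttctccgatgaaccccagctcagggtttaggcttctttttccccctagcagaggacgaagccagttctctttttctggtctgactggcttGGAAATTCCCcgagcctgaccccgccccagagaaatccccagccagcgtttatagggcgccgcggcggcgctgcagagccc
TNFAIP3: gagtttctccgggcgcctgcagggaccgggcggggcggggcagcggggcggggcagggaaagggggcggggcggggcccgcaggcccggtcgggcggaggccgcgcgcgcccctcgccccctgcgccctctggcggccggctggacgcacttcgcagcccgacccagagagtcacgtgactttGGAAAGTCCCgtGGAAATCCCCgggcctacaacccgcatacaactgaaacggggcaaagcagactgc
LCN2: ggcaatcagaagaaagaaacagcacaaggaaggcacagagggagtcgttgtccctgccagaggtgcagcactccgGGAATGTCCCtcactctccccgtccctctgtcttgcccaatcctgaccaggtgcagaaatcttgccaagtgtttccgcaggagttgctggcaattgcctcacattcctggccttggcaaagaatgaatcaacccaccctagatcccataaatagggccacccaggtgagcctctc

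The match in NFKB1 lay 49 to 40 bases before the start and read GGGAATTTCC. NFKBIA held the same 10 letters on the opposite strand, 81 to 72 bases before the start. In TNFAIP3, matches on the opposite strand read GGGACTTTCC, 67 to 58 bases before the start, and GGGGATTTCC, 55 to 46 bases before it. LCN2 had GGGACATTCC on the opposite strand, 175 to 166 bases before the start. A looser pattern, GGGNNNNNCC, which includes the consensus, occurred in 8 of 9 members, or 88.9%, but also in 71.5% of the promoters of genes tested, and LITAF alone had no match to it. ICAM1 had no match to the consensus, but its window holds TGGAAATTCC, which differs from the consensus in the first base. A match is a description of letters, and binding was not measured.

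**Figure D1:**
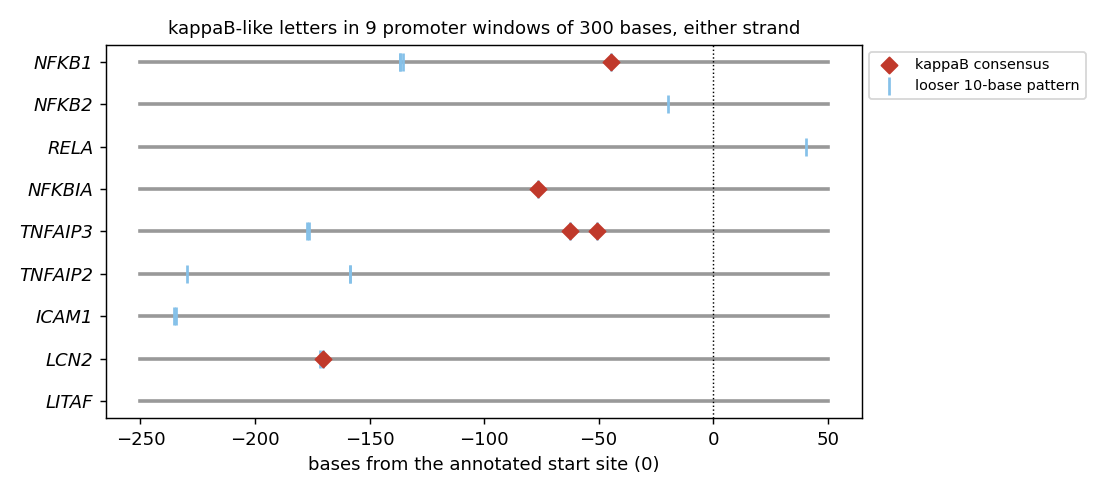
Position of kappaB letters in the promoter windows of 9 NF-κB genes, in bases from the annotated start (0), where diamonds mark the kappaB consensus and ticks the looser pattern GGGNNNNNCC. NFKB1, NFKBIA, TNFAIP3 and LCN2 carry diamonds, TNFAIP3 has 2 of them, and LITAF has neither mark.

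In LIM1215-R1, most of these genes were higher than in parental cells. On the log2 scale, LCN2 rose by 2.81 and LITAF by 2.22, NFKB2 and RELB by 0.96 and 0.81, and TNFAIP3 and ICAM1 by 0.58 and 0.59. Of the 10 genes, 7 passed the test as higher and 0 as lower, where 14% of all genes tested passed as higher and 13.4% as lower. LCN2 and LITAF were DEGs, as were 3.24% of all genes in that direction. In 9 of 10 genes, all 3 LIM1215-R1 libraries lay above all 3 parental ones, against 21.6% of all genes tested, and in 0 below them (22.4%). The median log2 fold change of the 10 genes was 0.70, or 0.59 without TNFAIP2, and that of all genes tested was -0.01. In bulk libraries of mixed populations, more cells that express a gene and more transcript per cell cannot be told apart.

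In LIM1215-R2, 5 of the 10 genes had changed against parental, in both directions. LCN2 rose 4.30-fold, LITAF 4.23-fold, NFKB2 1.28-fold and RELB 1.24-fold, while NFKBIA was 1.28-fold lower. Thus 4 passed the test as higher, where 12.3% of all genes did, and 1 as lower, where 11.6% did. LCN2 and LITAF were again DEGs, against 2.63% of all genes in that direction. The LIM1215-R2 libraries lay wholly above the parental ones in 5 genes (21.2% of all genes tested) and wholly below them in 1 (21.6%). The median log2 fold change was 0.25, or 0.20 without TNFAIP2, beside -0.00 for all genes tested. Both comparisons use the same 3 parental libraries.

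Set directly against LIM1215-R1, LIM1215-R2 had lower levels of NFKB2, RELB, NFKBIA, TNFAIP3, ICAM1 and LCN2. These 6 passed the test as lower and 0 passed as higher, where 3.77% and 3.39% of all genes tested did. By the fold criterion 0 were DEGs, where 0.55% of all genes qualified as lower and 0.215% as higher. In 7 of the 10 genes, the 6 above and NFKB1, every LIM1215-R2 library lay below every LIM1215-R1 library, against 14% of all genes. The median log2 difference was -0.51, and -0.00 over all genes tested. LITAF, RELA, NFKB1 and TNFAIP2 did not pass.

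**Figure D2:**
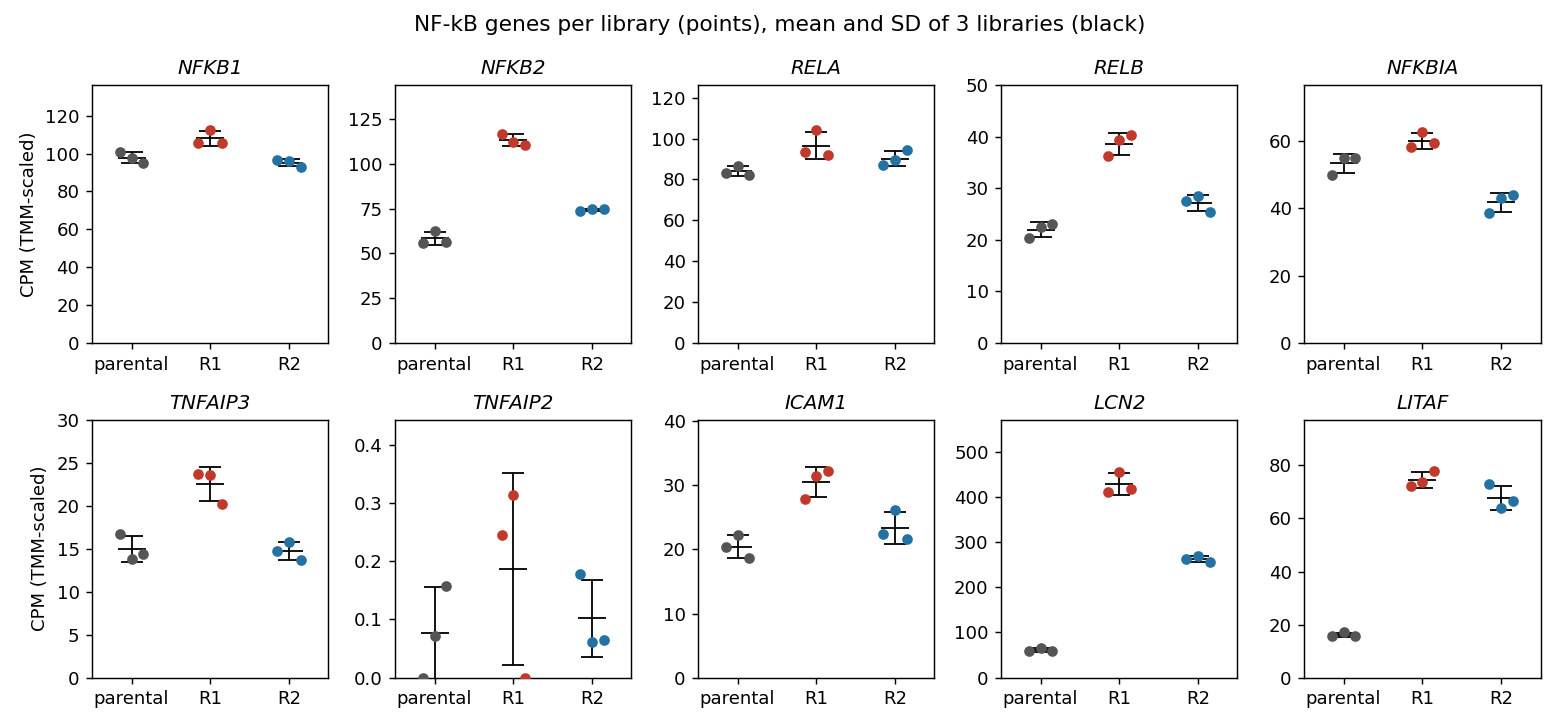
Level of each of the 10 NF-κB genes in CPM, scaled by TMM, in the 9 libraries (points), with the mean and SD of the 3 libraries of each line in black and every axis starting at 0. LCN2 and LITAF stand far above parental in both resistant lines, NFKB2 is highest in LIM1215-R1 at 111 to 117 CPM, and NFKBIA is lowest in LIM1215-R2 at 38.6 to 43.8 CPM.

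**Figure D3:**
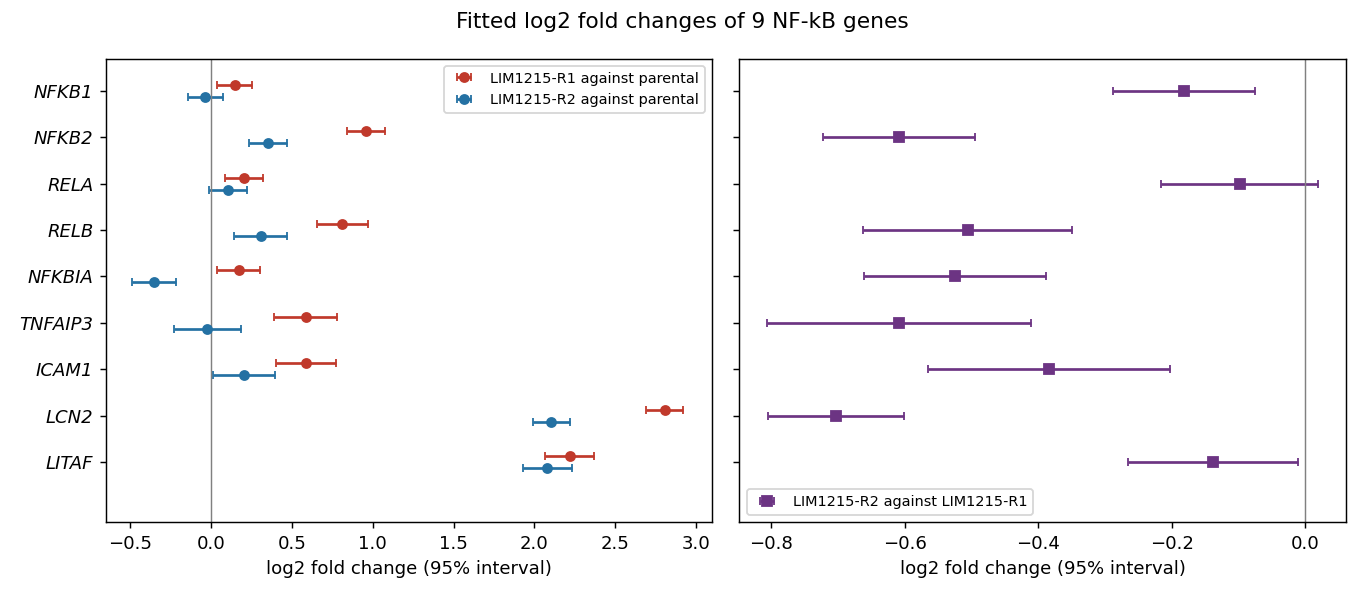
Fitted log2 fold change of 9 NF-κB genes with 95% intervals, on the left for each resistant line against parental and on the right for LIM1215-R2 against LIM1215-R1. TNFAIP2 is left out for its low counts, and in the right panel the interval of RELA, -0.22 to 0.02, is the only one that includes 0.

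NFKB2 encodes p100, the precursor of p52, and lies on chromosome 10 from 102394110 to 102402529 (GRCh38.p14, as for all gene positions here). Its level was 55.9, 62.6 and 56.6 CPM in the parental libraries, 117, 112 and 111 CPM in LIM1215-R1, and 73.5, 74.8 and 74.7 CPM in LIM1215-R2. The 3 lines did not overlap, with LIM1215-R2 between the other two. Against parental, the log2 fold change was 0.96 (SE 0.0565, adjusted p = 1.13e-13) in LIM1215-R1 and 0.35 (SE 0.0578, adjusted p = 1.93e-05) in LIM1215-R2. LIM1215-R2 was lower than LIM1215-R1 by a log2 difference of -0.61 (95% interval -0.72 to -0.49, adjusted p = 7.7e-09).

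RELB, the partner of p52, lies on chromosome 19 from 45001464 to 45038192. It was measured at 20.4, 22.5 and 23.1 CPM in the parental line, 36.2, 39.3 and 40.2 CPM in LIM1215-R1, and 27.5, 28.4 and 25.5 CPM in LIM1215-R2. As for NFKB2, the LIM1215-R2 libraries fell between those of the other lines without overlap. The log2 fold change was 0.81 (SE 0.0777, adjusted p = 2.19e-09) in LIM1215-R1 and 0.31 (SE 0.0804, adjusted p = 0.00378) in LIM1215-R2, and the resistant lines differed by -0.51 (95% interval -0.66 to -0.35, adjusted p = 2.72e-05). The call in LIM1215-R2 was lost without parental replicate 1 (0.25, adjusted p = 0.0329), without the library of LIM1215-R2 numbered 1 (0.30, adjusted p = 0.0177) or that numbered 2 (0.27, adjusted p = 0.0280). It was also lost after a correction for GC content and transcript length within each library (0.14, adjusted p = 0.142).

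NFKB1 encodes p105, the precursor of p50, on chromosome 4 from 102501359 to 102617302. Its level was 101, 97.5 and 94.9 CPM in the parental line, 106, 113 and 106 CPM in LIM1215-R1, and 96.5, 96.3 and 92.9 CPM in LIM1215-R2. The LIM1215-R1 libraries lay just above all others, and LIM1215-R2 overlapped parental. No comparison passed the test, with log2 fold changes of 0.14 (95% interval 0.04 to 0.25, adjusted p = 0.0292) in LIM1215-R1 and -0.04 (95% interval -0.14 to 0.07, adjusted p = 0.665) in LIM1215-R2, and a difference of -0.18 (95% interval -0.29 to -0.07, adjusted p = 0.0194) between the resistant lines.

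RELA encodes p65, the main activating subunit of the canonical pathway, on chromosome 11 from 65653601 to 65663857. The parental libraries held 83.4, 86.6 and 82.1 CPM, LIM1215-R1 93.4, 104 and 92.2 CPM, and LIM1215-R2 87.1, 89.4 and 94.3 CPM. Both resistant lines lay above parental in every library but overlapped each other. The change in LIM1215-R1 was small and passed the test (log2 fold change 0.20, SE 0.0573, adjusted p = 0.0064), and that in LIM1215-R2 did not (0.10, 95% interval -0.01 to 0.22, adjusted p = 0.188). The call in LIM1215-R1 ended without LIM1215-R1 replicate 2 (0.15, adjusted p = 0.0538), parental replicate 3 (0.18, adjusted p = 0.0367), parental replicate 1 (0.20, adjusted p = 0.0244) or LIM1215-R2 replicate 2 (0.20, adjusted p = 0.0113). After the correction for GC content and length it was 0.03 (adjusted p = 0.698), and it also missed the threshold with total counts as the only scaling (0.17, adjusted p = 0.0216) and in a fit to the 6 libraries compared (0.21, adjusted p = 0.0115).

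The balance between subunits was followed as a ratio within each library, with CPM divided by the length of the canonical transcript. NFKB2 per kilobase was 0.747, 0.864 and 0.802 times NFKB1 in the parental libraries, 1.49, 1.34 and 1.41 times in LIM1215-R1, and 1.02, 1.04 and 1.08 times in LIM1215-R2. The ratio was thus below 1 in every parental library and above 1 in every resistant library, with no overlap between the lines. The canonical transcripts have 3015 bases for NFKB2 and 4055 for NFKB1, and the side of 1 depends on these lengths. Without them, NFKB2 was below NFKB1 in every LIM1215-R2 library, with means of 74.3 and 95.2 CPM. The ratio was not corrected for GC content, which was 61.2% for NFKB2 and 46.6% for NFKB1. RELB per kilobase was 0.272, 0.289 and 0.313 times RELA in parental cells, 0.432, 0.421 and 0.487 times in LIM1215-R1, and 0.353, 0.354 and 0.301 times in LIM1215-R2. Here LIM1215-R1 stood apart, and LIM1215-R2 overlapped parental.

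Turning to the inhibitors, NFKBIA encodes IκBα, which retains dimers in the cytoplasm and is itself a target of NF-κB. It lies on chromosome 14 from 35401513 to 35404749 and has the kappaB match shown above. Its level was 49.9, 55.0 and 54.9 CPM in the parental line, 58.1, 62.6 and 59.4 CPM in LIM1215-R1, and 38.6, 42.9 and 43.8 CPM in LIM1215-R2. The resistant lines lay on opposite sides of parental, with no overlap. In LIM1215-R1 the test was not passed (log2 fold change 0.17, 95% interval 0.04 to 0.31, adjusted p = 0.0384), whereas NFKBIA fell by 0.35 on the log2 scale in LIM1215-R2 (SE 0.0668, adjusted p = 0.000128). The difference between the resistant lines was -0.52 (95% interval -0.66 to -0.39, adjusted p = 2.31e-06).

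TNFAIP3 encodes A20, a ubiquitin-editing enzyme that terminates signalling upstream of the IκB kinases, on chromosome 6 from 137866349 to 137883312. It was measured at 16.7, 13.9 and 14.4 CPM in the parental line, 23.7, 23.6 and 20.3 CPM in LIM1215-R1, and 14.8, 15.8 and 13.7 CPM in LIM1215-R2. LIM1215-R1 was above both other lines, which overlapped. The log2 fold change was 0.58 (SE 0.0957, adjusted p = 1.73e-05) in LIM1215-R1 and -0.02 (95% interval -0.23 to 0.18, adjusted p = 0.893) in LIM1215-R2. LIM1215-R2 was lower than LIM1215-R1 by -0.61 (95% interval -0.81 to -0.41, adjusted p = 5.71e-05).

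Among the targets, LCN2 changed most. It encodes lipocalin 2, a secreted protein that binds bacterial siderophores and so withholds iron, and lies on chromosome 9 from 128149453 to 128153453, next to the promoter printed above. Its level was 59.0, 66.5 and 58.4 CPM in the parental line, 412, 456 and 417 CPM in LIM1215-R1, and 263, 269 and 257 CPM in LIM1215-R2. The lines were widely separated in every library, in the order LIM1215-R1, LIM1215-R2, parental. The log2 fold change was 2.81 (95% interval 2.69 to 2.92, adjusted p = 1.74e-23) in LIM1215-R1 and 2.10 (95% interval 1.99 to 2.22, adjusted p = 3.09e-21) in LIM1215-R2, and LIM1215-R2 was 1.63-fold lower than LIM1215-R1 (-0.70, 95% interval -0.80 to -0.60, adjusted p = 5.58e-11).

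LITAF, named as a lipopolysaccharide-induced TNF factor, encodes a membrane protein of late endosomes and lysosomes, on chromosome 16 from 11547722 to 11640317. The parental libraries held 15.6, 17.0 and 15.6 CPM, LIM1215-R1 72.1, 73.7 and 77.9 CPM, and LIM1215-R2 72.9, 63.9 and 66.4 CPM. Both resistant lines were far above parental, and they overlapped each other. The log2 fold change was 2.22 (SE 0.0728, adjusted p = 3.52e-19) in LIM1215-R1 and 2.08 (SE 0.0732, adjusted p = 1.45e-18) in LIM1215-R2. The difference between the resistant lines, -0.14 (95% interval -0.27 to -0.01, adjusted p = 0.163), did not pass.

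ICAM1 encodes an adhesion molecule that binds leukocyte integrins, on chromosome 19 from 10271120 to 10286615. It was measured at 20.3, 22.3 and 18.7 CPM in the parental line, 27.9, 31.5 and 32.2 CPM in LIM1215-R1, and 22.4, 26.2 and 21.6 CPM in LIM1215-R2. LIM1215-R1 lay above both other lines, and LIM1215-R2 overlapped parental. The log2 fold change was 0.59 (SE 0.0895, adjusted p = 6.29e-06) in LIM1215-R1 and 0.20 (95% interval 0.01 to 0.39, adjusted p = 0.0971) in LIM1215-R2. The resistant lines differed by -0.38 (SE 0.0882, adjusted p = 0.00361), a call that was lost without LIM1215-R2 replicate 1 (adjusted p = 0.0350), LIM1215-R1 replicate 3 (adjusted p = 0.0340), LIM1215-R2 replicate 3 (adjusted p = 0.0264) or LIM1215-R1 replicate 2 (adjusted p = 0.0133).

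TNFAIP2, a gene named for its induction by TNF, on chromosome 14 from 103121469 to 103137439, was barely detected. The libraries held 0, 1 and 3 counts in parental cells, 4, 5 and 0 in LIM1215-R1, and 3, 1 and 1 in LIM1215-R2. A level of 3 counts corresponded to 0.160 to 0.218 CPM in these libraries. The gene reached the minimum of 10 counts over the 9 libraries, so all 10 members were tested, but no difference was detectable at this depth (adjusted p = 0.427 in LIM1215-R1, 0.866 in LIM1215-R2 and 0.68 between them).

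Levels of different genes were compared per kilobase of canonical transcript. LCN2 was the most abundant of the 10 in every line, with 74.8 ± 5.54 CPM per kilobase (SD, n = 3) in parental cells, 522 ± 29.5 in LIM1215-R1 and 321 ± 7.50 in LIM1215-R2. In parental cells it was followed by NFKBIA (34.2) and RELA (33.4 CPM per kilobase), whose libraries overlapped, then NFKB1 (24.1), NFKB2 (19.4) and RELB (9.73 CPM per kilobase). ICAM1 (6.88) and LITAF (6.59 CPM per kilobase) overlapped in parental cells and lay above TNFAIP3 (3.22 CPM per kilobase). In LIM1215-R1, NFKBIA (38.5), RELA (38.4) and NFKB2 (37.6 CPM per kilobase) overlapped with their neighbour in the order, and LITAF (30.6 CPM per kilobase) came above NFKB1 (26.6 CPM per kilobase). In LIM1215-R2, RELA (35.9 CPM per kilobase) was second, and LITAF (27.8), NFKBIA (26.8) and NFKB2 (24.6 CPM per kilobase) overlapped with their neighbour. LITAF thus moved from below RELB in parental cells to above NFKB1 in both resistant lines.

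**Figure D4:**
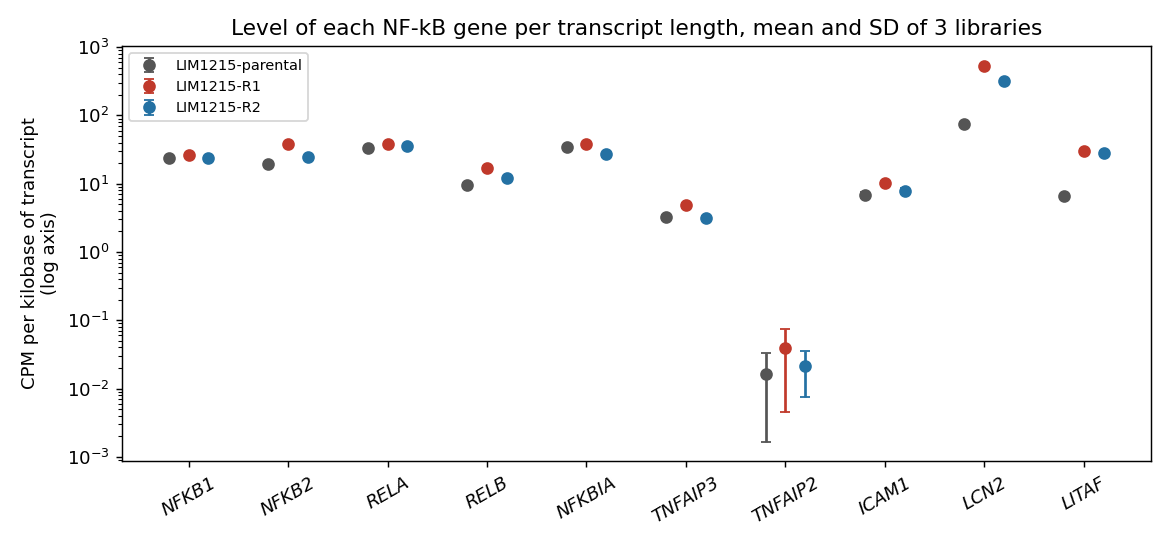
Level of the 10 NF-κB genes in CPM per kilobase of canonical transcript on a log axis, as mean and SD of 3 libraries per line; for TNFAIP2 the lower bars are limited so that they stay above 0. LCN2 is highest in each line, at 74.8, 522 and 321 CPM per kilobase, and TNFAIP2 lies far below the others.

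The 10 genes were set beside 91 further genes of the pathway, of which 73 had enough counts to be tested. Among the other 18, TNF, LTB, CD40, TLR4, VCAM1 and SELE had 0 counts in all 9 libraries, and IL6 had 3 counts in all. In LIM1215-R1, 30 of the 73 passed the test as higher than parental (14% of all genes tested) and 7 as lower (13.4%, so the share that was lower was below that of all genes), with a median log2 fold change of 0.15. In LIM1215-R2, 19 passed as higher (12.3%) and 9 as lower (11.6%), with a median of 0.08. Between the resistant lines, 2 were higher (3.39%) and 18 lower (3.77%) in LIM1215-R2, with a median of -0.10. The counts by role below stand against these same shares. Of the 6 DEGs of this list in LIM1215-R1, 5 were higher (3.24% of all genes) and 1 lower (1.91%), and in LIM1215-R2 there were 2 higher (2.63%) and 0 lower (2.19%). Between the resistant lines, 1 DEG was higher (0.215%) and 2 were lower (0.55%) in LIM1215-R2.

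Of the 6 genes of NIK, the IκB kinase complex and the related kinases TBK1 and IKBKE, 3 rose in LIM1215-R1, 2 rose in LIM1215-R2 and 0 fell in either. MAP3K14, which encodes NIK, was at 11.2 ± 1.10 CPM in the parental line, 21.6 ± 0.713 in LIM1215-R1 and 16.1 ± 0.862 in LIM1215-R2 (SD, n = 3). It rose by a log2 fold change of 0.96 (adjusted p = 4.2e-09) and 0.53 (adjusted p = 8.19e-05), and the resistant lines differed by -0.42 (adjusted p = 0.00183, but 0.0232 without LIM1215-R2 replicate 1 and 0.0166 without LIM1215-R1 replicate 3). NIK is held at low protein levels by a complex with TRAF3, and TRAF3 was also higher, by 0.44 in LIM1215-R1 (adjusted p = 5.3e-08) and 0.26 in LIM1215-R2 (adjusted p = 0.000146). BIRC2, of the same complex, had lower mean levels, with 55.9 ± 1.96 CPM in parental cells, 46.2 ± 2.92 in LIM1215-R1 and 45.0 ± 3.03 in LIM1215-R2. TRAF2, also of that complex, did not pass in LIM1215-R1 (0.06, adjusted p = 0.57) or LIM1215-R2 (0.02, adjusted p = 0.892). BIRC3, for the related cIAP2, went the other way from BIRC2. Its mean levels were 41.2 ± 2.83 CPM in parental cells, 82.9 ± 7.84 in LIM1215-R1 and 53.6 ± 2.91 in LIM1215-R2. CHUK, which encodes the IκB kinase IKKα, rose by 0.25 in LIM1215-R2 (adjusted p = 0.000504) and by 0.19 in LIM1215-R1 (adjusted p = 0.00564), where 5 of 9 fits that each left out 1 library lost the call, up to an adjusted p of 0.0370 without LIM1215-R1 replicate 3. The call of CHUK in LIM1215-R1 was also lost with total counts as the only scaling (0.16, adjusted p = 0.0229) and in the fit to 6 libraries (0.20, adjusted p = 0.0114). IKBKB and IKBKG, for the other subunits of the complex, did not pass in either line (log2 fold changes of -0.05 and -0.06 for IKBKB, -0.10 and -0.17 for IKBKG). IKBKE, a related kinase, rose in LIM1215-R1 (0.47, adjusted p = 6.18e-06) and was 0.19 higher in LIM1215-R2 (adjusted p = 0.0485).

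Of the 5 genes of other IκB proteins, 2 rose and 1 fell in LIM1215-R1, and 1 rose and 1 fell in LIM1215-R2, while the remaining subunit gene fell in both. REL, which encodes c-Rel, fell from 43.3 ± 2.85 CPM in parental cells to 30.9 ± 1.28 in LIM1215-R1 (-0.48, adjusted p = 1.06e-05) and 35.6 ± 3.42 in LIM1215-R2 (-0.28, adjusted p = 0.00472, but 0.0395 without parental replicate 1, 0.0390 without LIM1215-R2 replicate 3 and 0.0286 without its replicate 2). NFKBIZ, for the atypical nuclear protein IκBζ, fell from 86.5 ± 0.759 to 47.5 ± 2.76 and 38.1 ± 1.78 CPM, with log2 fold changes of -0.86 (adjusted p = 4.02e-12) and -1.19 (adjusted p = 8.06e-15). By contrast, NFKBIE, for IκBε, rose in LIM1215-R1 (0.64, adjusted p = 5.12e-06) and had a value of 0.25 in LIM1215-R2 (adjusted p = 0.0631). NFKBIB, for IκBβ, rose by 0.41 in LIM1215-R1 (adjusted p = 1.56e-05), and its value of 0.23 in LIM1215-R2 (adjusted p = 0.0095) lost the call in 6 of 9 fits without 1 library, up to 0.0538 without parental replicate 1. That call of NFKBIB was also lost with DESeq2 (adjusted p = 0.0116), with total counts as the only scaling (0.21, adjusted p = 0.0156) and after the correction for GC content and length (0.093, adjusted p = 0.192).

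Of 8 deubiquitinases and their partners, 2 rose in LIM1215-R1 and 0 in LIM1215-R2. These were CYLD, which like A20 removes ubiquitin chains (0.44, adjusted p = 0.000425), and TNIP1, which binds A20 (0.31, adjusted p = 4.26e-05). In LIM1215-R2, TNIP1 had a log2 fold change of -0.06 (adjusted p = 0.442, but -0.13 with 0.00858 after the correction for GC content and length), and it was lower than in LIM1215-R1 by -0.37 (adjusted p = 1.91e-05), as was TNFAIP3 itself. Of 22 adaptors, ubiquitin ligases and upstream kinases, 6 rose and 2 fell in LIM1215-R1, and 5 rose and 2 fell in LIM1215-R2, so that the share that fell was below the 13.4% and 11.6% of all genes. TRAF5 had the largest change among those that passed, to 77.8 ± 6.18 CPM in LIM1215-R2 from 49.8 ± 2.07 in parental cells (0.65, adjusted p = 1.19e-08), and it was 0.13 higher in LIM1215-R1 (adjusted p = 0.174, but 0.20 with 0.00269 after the correction for GC content and length). MALT1 and CARD10, parts of one signalling complex, rose in both lines. The values were 0.35 (adjusted p = 0.000111) and 0.56 (adjusted p = 8.6e-08) for MALT1. For CARD10 they were 0.40 (adjusted p = 4.04e-06) and 0.41 (adjusted p = 3.24e-06). BCL10, also of that complex, did not pass in LIM1215-R1 (-0.01, adjusted p = 0.974) or LIM1215-R2 (-0.13, adjusted p = 0.231).

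At the receptors, 5 of 10 rose and 2 fell in LIM1215-R1, and 3 rose and 0 fell in LIM1215-R2. TNFRSF1B, the receptor TNFR2, rose from 48.0 ± 0.374 CPM to 86.8 ± 5.79 in LIM1215-R1 (0.85, adjusted p = 6.36e-12) and 95.1 ± 4.54 in LIM1215-R2 (0.98, adjusted p = 2.77e-13). TNFRSF12A, the receptor for TWEAK, rose by 0.83 (adjusted p = 1.31e-10) and 0.73 (adjusted p = 1.69e-09). Low counts limit the next genes. IL1R1 was at 0.713 ± 0.110 CPM in the parental line, 0.228 ± 0.0350 in LIM1215-R1 and 1.60 ± 0.207 in LIM1215-R2, so that it fell by 1.63 on the log2 scale in the former (adjusted p = 0.00471) and rose by 1.14 in the latter (adjusted p = 0.00474). DESeq2 gave adjusted p-values of 0.0216 and 0.0357 for these changes of IL1R1, the fit to 6 libraries gave 0.0124 for the former, and 4 of 9 fits without 1 library lost each of them (up to 0.0280 without parental replicate 3 and 0.0250 without LIM1215-R2 replicate 3). TLR2 rose in LIM1215-R1 from 0.864 ± 0.289 to 2.03 ± 0.197 CPM (1.23, adjusted p = 0.00137, or 0.0155 without parental replicate 1) and was at 0.792 ± 0.168 CPM in LIM1215-R2. Among the 4 ligands tested, IL18 alone passed, and it did so in LIM1215-R1, where it was at 13.4 ± 2.33 CPM against 6.64 ± 1.25 in parental cells (1.00, adjusted p = 1.16e-06).

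Of the 17 other target genes tested, 11 rose and 1 fell in LIM1215-R1, and 8 rose and 5 fell in LIM1215-R2. Between the resistant lines, 10 of them were lower in LIM1215-R2 and 0 were higher. C3, for complement component 3, rose in LIM1215-R1 from 0.696 ± 0.148 to 3.56 ± 0.585 CPM (2.37, adjusted p = 1.64e-07) and was at 0.730 ± 0.339 CPM in LIM1215-R2. CSF1, a macrophage growth factor, rose from 1.29 ± 0.205 to 6.64 ± 0.314 and 2.97 ± 0.304 CPM, by 2.34 (adjusted p = 6.56e-11) and 1.18 (adjusted p = 6.37e-05). PTGS2, for cyclooxygenase 2, rose from 5.71 ± 0.432 to 25.4 ± 2.23 and 16.3 ± 1.58 CPM, by 2.14 (adjusted p = 6.18e-15) and 1.51 (adjusted p = 2.89e-11). CD83, a surface protein known from dendritic cells, rose from 3.34 ± 0.923 to 12.7 ± 1.75 and 11.9 ± 0.391 CPM, by 1.96 (adjusted p = 3.68e-11) and 1.86 (adjusted p = 1.17e-10). PTGS2 and CD83 were the DEGs of this list in LIM1215-R2, and the number was 1 without parental replicate 2, LIM1215-R2 replicate 1 or LIM1215-R2 replicate 2.

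Further targets were singled out after their values were seen. CXCL8, for interleukin 8, was the remaining DEG that rose in LIM1215-R1 and went from 34.2 ± 3.78 CPM to 107 ± 8.47 and 66.5 ± 4.96 CPM, by 1.64 (adjusted p = 5.07e-16) and 0.95 (adjusted p = 7.82e-11). BIRC3, for the ubiquitin ligase cIAP2, followed the order of NFKB2, with 41.2 ± 2.83, 82.9 ± 7.84 and 53.6 ± 2.91 CPM in parental, LIM1215-R1 and LIM1215-R2 cells. CCL20, a chemokine that attracts CCR6-bearing cells, moved in opposite directions, as it rose in LIM1215-R1 (0.61, adjusted p = 0.00018) and fell in LIM1215-R2 (-1.08, adjusted p = 7.59e-07).

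**Figure D5:**
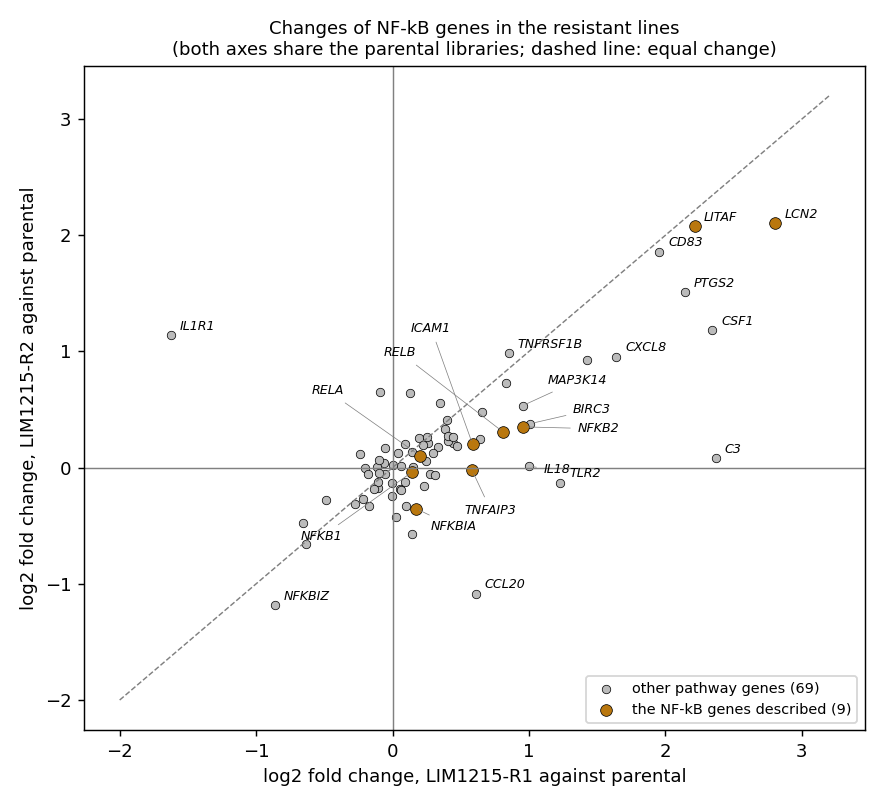
Log2 fold change against parental in LIM1215-R1 (horizontal) and LIM1215-R2 (vertical) for 9 of the 10 NF-κB genes (filled) and 69 other pathway genes with a mean of at least 1 CPM in at least 1 line (grey); both axes share the parental libraries, and the dashed line marks equal change. LITAF (2.22 and 2.08) lies close to the line, LCN2 (2.81 and 2.10) and NFKB2 (0.96 and 0.35) lie below it, and NFKBIA (0.17 and -0.35) and CCL20 (0.61 and -1.08) have opposite signs in the lines.

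Over the 3 lines, the genes nearest to LCN2 and LITAF in their pair of log2 fold changes were sought among 9302 genes with a mean of at least 10 CPM. Those nearest to LCN2 were AOC1 (2.81 and 2.04, a Euclidean distance of 0.0668) and SLC2A3 (2.77 and 2.24, a distance of 0.142). LITAF was nearest to PLK2 (2.21 and 2.14, a distance of 0.0562) and AHNAK2 (2.14 and 2.12, a distance of 0.0925). This likeness rests on 3 lines and carries no test.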

How the data were processed

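The 3 lines were sequenced with 3 libraries each, and libraries were grouped by the line named in their titles. The authors aligned paired reads with STAR (genome hg38), obtained reverse-strand gene counts with HTSeq 0.9.1 and deposited these raw counts without normalization. The gene annotation is not given in the sources used here. Replicate libraries differed by more than sampling noise, and all 9 were used as separate libraries. The study calls those of a line technical replicates, and the step at which they were split is not given.

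The analysis used edgeR 4.0.16 and limma 3.58.1 under R 4.3.3. A gene needed 10 counts summed over all libraries, which 19102 genes had. TMM factors were applied, and all 9 libraries entered a single quasi-likelihood model grouped by line. Each two-sided test was adjusted by Benjamini-Hochberg over all genes tested. The common biological coefficient of variation was 4.92%. Positions and promoters came from RefSeq on GRCh38.p14, and transcript lengths from canonical transcripts of the GENCODE annotation. No other gene of that annotation overlapped a member on its own strand.

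The members, the pathway list, the markers and the tests were chosen with earlier results of these data known. Of the pathway list, up to 4 genes per role class with the largest change against parental were named, among those that passed in at least 1 line and reached 1 CPM. Outside this rule, IKBKB, IKBKG, TRAF2, BIRC2 and BCL10 were given as further parts of the complexes described. CXCL8, BIRC3 and CCL20 were picked after their values were seen. For members that changed by 1 or more on the log2 scale, the 2 genes of nearest pattern were named. Alternatives were other count filters, DESeq2's size factors or total counts as scaling, DESeq2 1.42.0 with and without lfcShrink, fits to the 6 libraries compared, a block for the replicate number, omission of single libraries, other thresholds, and a correction for GC content and length. The scripts were tested on simulated data. Sampling intervals and the 3-count floor cover counting error only.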

Additional observations from a re-analysis of the deposited data

Results flagged for a closer look

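The resistant lines differed from each other in 6 of the 10 NF-κB genes by the direct test of LIM1215-R2 against LIM1215-R1. The parental level drops out of this fold change, but the parental libraries still entered the scaling and the estimate of spread. All 6 were lower in LIM1215-R2, where 3.77% of all genes tested passed as lower and 3.39% as higher. The log2 difference was -0.61 for NFKB2, -0.51 for RELB, -0.52 for NFKBIA, -0.61 for TNFAIP3, -0.38 for ICAM1 and -0.70 for LCN2. The call of ICAM1 was lost in 4 of 9 fits without 1 library, up to an adjusted p of 0.0350 without LIM1215-R2 replicate 1. In each of these genes, all 3 LIM1215-R2 libraries lay below all 3 LIM1215-R1 libraries. Against parental, NFKBIA had log2 fold changes of opposite sign, 0.17 in LIM1215-R1, which did not pass, and -0.35 in LIM1215-R2, which did.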

How the results depend on the processing

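The direction and call of the 10 NF-κB genes held in 541 repeats under other settings. In the other repeats, 15 lost the call, 6 gained it and 4 changed sign, and all 4 changes of sign were in LIM1215-R2 against parental for TNFAIP3 and TNFAIP2, which did not pass. Leaving out 1 library at a time, TNFAIP3 in LIM1215-R2 against parental ranged from -0.074 to 0.060 and TNFAIP2 from -0.29 to 1.45, and the same range was -0.39 to 0.068 for TLR2, -0.10 to 0.15 for IL18 and -0.25 to 0.40 for C3. IL18 was also at -0.0044 with total counts as the only scaling. Without single libraries, the number of members that passed ranged from 6 to 7 in LIM1215-R1, 4 to 5 in LIM1215-R2 and 5 to 6 between the lines. Over all settings it ranged from 6 to 9, 4 to 5 and 5 to 7, where 9 came with an adjusted p of at most 0.05. The 7 between the lines came with that threshold, with the replicate block and with the correction for GC content and length.

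The number of DEGs among the other pathway genes, 6 in LIM1215-R1, 2 in LIM1215-R2 and 3 between the lines, became 10, 6 and 5 with a fold criterion of 1 on the log2 scale. In LIM1215-R1 it became 4 with at least 10 counts in every library, and 5 with DESeq2 and in the fit to 6 libraries, each with 0 lower. It ranged there from 5 to 6 without single libraries and was 8 with an adjusted p of at most 0.05. It became 1 in LIM1215-R2 with total counts as the only scaling and with DESeq2's lfcShrink, and ranged from 1 to 2 without single libraries. Between the lines it became 1 with at least 10 counts in every library, a filter that TNFAIP2 did not pass, and ranged from 3 to 4 without single libraries.

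Same-numbered replicates showed no consistent pairing. The correlations of their deviations from the line means ranged from -0.106 to 0.274, and not every library correlated best with its own number. With 3 libraries per line these deviations sum to 0, so the correlations cannot exclude pairing. With the replicate number as a block, 7, 5 and 7 members passed in LIM1215-R1, in LIM1215-R2 and between the lines, and the gene gained was NFKB1 between the lines (-0.18, adjusted p = 0.00656). Of the other pathway genes, 39, 33 and 26 passed with the block, against 37, 28 and 20 without it. NFKB1 also passed after the correction for GC content and length, in LIM1215-R1 (0.16, adjusted p = 0.00144) and between the lines (-0.18, adjusted p = 0.00162). Other scalings moved the median of all genes by at most 0.03 in size.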
